A study of Mus musculus with 24 samples.

Results

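The HCN subunit genes *Hcn2*, *Hcn3* and *Hcn4* and the gene of their regulatory protein TRIP8b, *Pex5l*, were followed in the hippocampus of mice that lost *Tsc1* as adults. These 4 genes were taken by name from the 55385 gene identifiers counted in each of 24 mice, by what they code for. They were picked with earlier results of these data known. *Hcn3* was the member that changed most. It was at 1.80-fold the control level on day 8 and 3.05-fold on day 13 after the start of tamoxifen, and in mice given rapamycin it lay within or just under the control range. *Hcn4* was lower with rapamycin than on day 13 without it, while its differences from controls did not pass edgeR's test. The group means of *Hcn2* lay between 76.0 and 89.5 CPM and those of *Pex5l* between 352 and 422 CPM, and neither gene was called in any comparison.

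The study asked how the hippocampal transcriptome changes while epilepsy develops after loss of TSC1, a brake on the growth-controlling kinase complex mTORC1. There were 6 groups of 4 adult mice of both sexes, 1 hippocampal RNA library per mouse. Controls (Tsc1-Cre-) had the genotype Tsc1f/f-Tg(Camk2a-CreERT2-), received tamoxifen, kept *Tsc1* and were taken on day 8. The other groups carried Tsc1f/f-Tg (Camk2a-CreERT2+), lost *Tsc1* after the same tamoxifen course, and were taken on day 4, 6, 8 or 13 after the first injection without any other drug, or on day 13 after daily rapamycin at 10 mg/kg from day 4 (Rap 4). Every mouse thus had both floxed *Tsc1* alleles and tamoxifen. Days 4, 6 and 13 had no controls of their own day, and no Cre-negative mice received rapamycin. Cre was driven by *Camk2a* sequence, so deletion was limited to CAMK2A-expressing neurons, and other cells of the hippocampus kept the gene. Replicates are separate mice, named A to D within each group.

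HCN channels are cation channels that open when a neuron is hyperpolarized and carry the current called Ih, which sets resting potential and dampens the summation of dendritic inputs. Cyclic AMP bound to the cytoplasmic C terminus eases the opening of channels made of HCN2 or HCN4, and much less so of HCN3. TRIP8b is a neuronal accessory protein that binds the C terminus of HCN subunits, directs their transport and weakens the effect of cyclic AMP. *Hcn2* is widely expressed in the brain, whereas *Hcn4* is best known from the pacemaker of the heart and, in the brain, from the thalamus, the medial habenula and the olfactory bulb.

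The coding ends of the 3 subunit genes are shown because the extreme C terminus of an HCN subunit is one of the places that TRIP8b holds, with a domain built of tetratricopeptide repeats. Each line gives the last 30 coding bases before the stop codon, read from GENCODE M21 transcripts on GRCm38, with the last 3 codons in capitals.
Hcn2: tctgcgcgctcgcgcctctctTCCAACTTG
Hcn3: cccagaggtccccaaatttctGCCAACATG
Hcn4: ccagtacgctccaaactgccgTCTAATTTA

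The *Hcn2* stretch lies at chr10:79735508-79735537 on the plus strand (transcript Hcn2-202, 863 codons), the *Hcn3* stretch at chr3:89147602-89147631 on the minus strand (Hcn3-201, 779 codons) and the *Hcn4* stretch at chr9:58860731-58860760 on the plus strand (Hcn4-201, 1201 codons). Each is coding sequence inside one exon. Of the 9 bases in capitals, *Hcn3* shares 7 with *Hcn2* and *Hcn4* shares 6. Read as codons the order is the other way: all 3 codons of *Hcn4* code for the same residues as those of *Hcn2*, and 1 of 3 in *Hcn3* does. Over all 30 bases the matches to *Hcn2* were 15 for *Hcn3* and 16 for *Hcn4*.

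The whole genes are *Hcn2* (ENSMUSG00000020331.9, chr10:79716634-79736108), *Hcn3* (ENSMUSG00000028051.10, chr3:89146074-89160196), *Hcn4* (ENSMUSG00000032338.9, chr9:58823412-58863175) and *Pex5l* (ENSMUSG00000027674.16, chr3:32949408-33143247), all protein coding. *Hcn3* shares 711 exonic bases with *Pklr*, the liver-type pyruvate kinase gene on the opposite strand. *Pklr* had 208 counts over all 24 mice against 15016 for *Hcn3*. *Pex5l* shares 340 exonic bases with the antisense transcript *Gm37459*, which had 45818 counts against 517392 for *Pex5l*. The libraries kept strand, but the strand setting of the counting was not given in the sources used here, so reads in the shared bases are uncertain.

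Total counts ranged from 28208561 to 126435936 per mouse (median 55582027). The CPM scale is the read count scaled to library size, here with edgeR's TMM factors from all 24 mice. *Tsc1* itself ranged from 103 to 109.5 CPM in controls and from 57.4 to 81.7 CPM in all Cre-positive mice, without overlap. The summed level of 8 markers of excitatory hippocampal neurons ranged from 2568 to 3942 CPM over all 24 mice. The sum does not show the level of each single marker. A pair of mice stood apart in 9 thalamus markers: control D and day 8 C had summed levels of 367 and 360 CPM, against 75.1 to 264.5 CPM in the others, and were the top pair for 7 of the 9 markers. Differences of *Hcn4*, a gene of thalamus and habenula, from controls are therefore given with and without them. The 7 choroid plexus markers were uneven too, with sums of 40.87 to 1723 CPM over the 24 mice. Control B held the highest sum, against 63.85 to 84.23 CPM in the other controls. The part of these markers in the values of the members was not tested. Control and day 8 animals were drawn from 2 shared number series, A and B from one and C and D from the other. The remaining groups were drawn elsewhere, so in those the group and the cohort cannot be told apart.

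In controls, *Pex5l* and *Hcn2* were far above the other members. Compared per kilobase of exon, mean control levels were 45.4 ± 2.40 CPM per kilobase for *Pex5l*, 25.5 ± 1.34 for *Hcn2*, 1.57 ± 0.285 for *Hcn3* and 0.453 ± 0.220 for *Hcn4* (SD, n = 4). Among the 3 subunit genes described here, *Hcn2* accounted for 92.7% ± 1.08 of the summed per-kilobase level, *Hcn3* for 5.68% ± 0.957 and *Hcn4* for 1.61% ± 0.702. On day 13 these shares were 81.0% ± 7.06 for *Hcn2*, 16.2% ± 6.28 for *Hcn3* and 2.80% ± 0.895 for *Hcn4*. With rapamycin they were 93.3% ± 0.769, 5.45% ± 0.231 and 1.29% ± 0.728 in the same order. *Hcn2* thus stayed the most abundant of the 3 in each group.

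*Hcn3* codes for the subunit whose opening is least eased by cyclic AMP. In controls its level was 5.54, 6.09, 8.23 and 6.15 CPM in mice A to D. On day 4 it was 7.92, 8.66, 7.33 and 9.16 CPM, and on day 6 it was 8.44, 9.0, 7.99 and 9.02 CPM. Both of these groups overlapped the controls, through the single highest control, mouse C.

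On day 8 *Hcn3* was at 13.0, 11.6, 14.4 and 8.44 CPM, and on day 13 at 27.3, 27.3, 12.2 and 13.6 CPM. In the Rap 4 mice it was at 6.73, 5.62, 5.54 and 5.22 CPM. Each day 8 and day 13 mouse was above each control, and the Rap 4 mice lay within or just under the control range. In order of their means, the groups ran from Rap 4 (5.78 ± 0.660 CPM) through controls (6.5 ± 1.18), day 4 (8.27 ± 0.807), day 6 (8.61 ± 0.493) and day 8 (11.9 ± 2.55) to day 13 (20.1 ± 8.33), and the ranges of each group and the next in this order overlapped.

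The fold changes were fitted by edgeR's quasi-likelihood test on the 8 mice of each comparison, with Benjamini-Hochberg adjustment over all genes tested. Called changed means past both limits, adjusted p below 0.05 and a log2 difference beyond 0.5 in either direction. *Hcn3* was 0.34 ± 0.122 (SE) above controls on the log2 scale on day 4 (edgeR, adjusted p = 0.145) and 0.39 ± 0.112 on day 6 (edgeR, adjusted p = 0.0400), which passed the p but not the fold minimum. Without control C, the day 6 value was 0.53 (edgeR, adjusted p = 0.00407), past both.

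On day 8 *Hcn3* rose by 0.85 ± 0.167 log2 units (edgeR, adjusted p = 0.00822). It was the only one of the 4 members called on day 8, where 3.99% of all 25085 genes tested were called. Within the 2 series of animal numbers that controls and day 8 mice share, the log2 ratio of mean levels was 1.08 for mice A and B and 0.67 for mice C and D, and the call held with the series as a block, without the pair rich in thalamus markers and without each mouse in turn (log2 0.75 to 0.98). On day 8, 3 of 7 oligodendrocyte markers were called lower, with sums of 2769 to 3187 CPM against 2950.0 to 4586 CPM in controls, and their part in the *Hcn3* values was not tested.

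On day 13 *Hcn3* was above controls by 1.61 ± 0.274 log2 units (edgeR, adjusted p = 0.00349), again as the only member called, with 16.5% of 24920 genes called. The day 13 mice fell into a pair near 27 CPM, mice A and B, and a pair near 13 CPM, mice C and D. Mice A and B share a series of animal numbers, and mice C and D come from other series. Mice A and B also had the larger total counts, 69971957 and 126435936, against 38423852 and 41101425 in mice C and D. The part of series and depth in this split was not tested. Without each mouse in turn the change stayed between 1.43 and 1.81 log2 units and was called each time. Against day 8, *Hcn3* on day 13 was higher by 0.75 ± 0.279 log2 units, which did not pass the test (edgeR, adjusted p = 0.318). In that comparison edgeR called 0 members and 0% of 24747 genes, with 3479 genes at an unadjusted p under 0.05 and 238 genes called by DESeq2. A fit over all 24 mice gave 0.77 log2 units for the same step and did pass (edgeR, adjusted p = 0.0199).

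In Rap 4 mice *Hcn3* fell below untreated day 13 mice, with a difference of -1.79 ± 0.263 log2 units and a 0.289-fold level (edgeR, adjusted p = 0.00138). *Hcn3* and *Hcn4* were the 2 members called in this comparison, beside 21.1% of 24274 genes. Against controls the Rap 4 difference in *Hcn3* was -0.18 log2 units with a 95% interval of -0.47 to 0.11 (edgeR, adjusted p = 0.532). No member was called between Rap 4 mice and controls by edgeR or by DESeq2, and 1.41% of 25006 genes were called by edgeR. An unadjusted edgeR p under 0.05 was reached by 1 member and by 4525 of the 25006 genes.

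Markers of vessels and glia differed between the same groups. The 5 endothelial markers summed to 118 to 128 CPM in Rap 4 mice against 159.9 to 208 CPM on day 13, with 3 called lower, and the 6 microglia markers to 166 to 187 CPM against 199.7 to 272 CPM, with 2 called lower. Of 6 astrocyte markers 3 were called lower, among them *Gfap*, a gene of reactive astrocytes, and 1 higher. Of 8 excitatory hippocampal neuron markers, 1 was called higher and 2 lower in Rap 4 mice than on day 13. On day 13 against controls, 1 of these 8 was called higher and 1 lower. Compared with controls, 4 of 7 oligodendrocyte, 2 of 6 astrocyte, 2 of 6 microglia and 2 of 5 endothelial markers were called lower in Rap 4 mice. Their part in the *Hcn3* and *Hcn4* values was not tested.

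The summed level of the 9 thalamus markers was 75.1 to 146.3 CPM on day 13. This was under each control (166 to 367 CPM) and each Rap 4 mouse (165 to 264.5 CPM). Of the 9, 3 were called lower than in controls on day 13, *Prkcd*, *Ramp3* and *Ntng1*. *Tcf7l2*, *Slc17a6*, *Rgs16* and *Plekhg1* overlapped the controls, with *Tcf7l2* at 3.43 to 8.32 CPM against 3.96 to 12.8 CPM. With the mean level of the 9 markers as a covariate, the *Hcn3* change on day 13 was 1.29 log2 units (edgeR, adjusted p = 0.163). That between Rap 4 and day 13 was -1.16 (edgeR, adjusted p = 0.120), and neither was called. The same covariate reduced the genes called over the whole transcriptome from 4101 to 361 on day 13 and from 5123 to 428 for Rap 4 against day 13. Since the marker level does not overlap between the groups of either comparison, marker level and group cannot be told apart. The summed level of 7 interneuron markers also ranged higher on day 13, from 376 to 559 CPM against 372 to 405 CPM in controls. The 1 marker called was *Npy*, a neuropeptide gene, and the median log2 fold change over the 7 was 0.025. Their part in the *Hcn3* values was not tested. In bulk tissue, fewer cells of a type and less RNA per cell cannot be told apart.

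**Figure D1:**
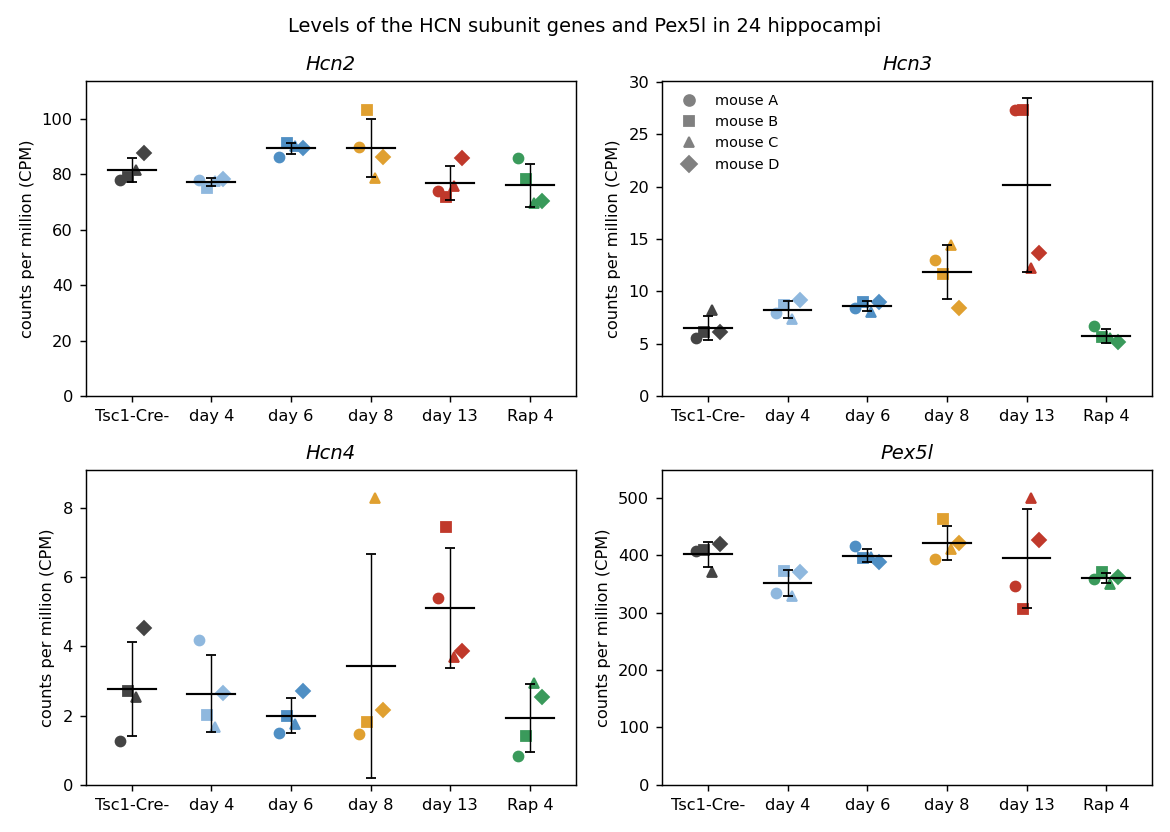
Level of each gene in each mouse, in CPM on a linear axis that starts at 0, by group; symbols mark mice A to D, horizontal bars the group mean and whiskers the SD (n = 4). The mean of *Hcn3* is 6.5 CPM in controls, all taken on day 8, 20.1 CPM on day 13 and 5.78 CPM in Rap 4 mice, whereas *Hcn4* has 1 far value of 8.27 CPM on day 8.

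*Hcn4* codes for a slowly opening subunit that responds strongly to cyclic AMP, and it was the rarest member, with 24 to 874 counts per mouse. In controls it was at 1.27, 2.72, 2.55 and 4.54 CPM in mice A to D, on day 4 at 4.18, 2.03, 1.67 and 2.67 CPM, and on day 6 at 1.51, 1.99, 1.77 and 2.7 CPM. These groups overlapped throughout, and the highest control was mouse D, one of the pair rich in thalamus markers.

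On day 8 *Hcn4* was at 1.47, 1.81, 8.27 and 2.16 CPM, on day 13 at 5.40, 7.46, 3.69 and 3.88 CPM, and in Rap 4 mice at 0.833, 1.41, 2.94 and 2.54 CPM. The day 8 group held 3 low mice and 1 very high one, mouse C. The day 13 mice all lay above the Rap 4 mice and overlapped the controls only through control D. By their means the order was Rap 4 (1.93 ± 0.974 CPM), day 6 (1.99 ± 0.510), day 4 (2.63 ± 1.11), controls (2.77 ± 1.35), day 8 (3.43 ± 3.24) and day 13 (5.11 ± 1.74), with overlapping ranges between neighbours.

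Against controls *Hcn4* differed by -0.068 ± 0.339 log2 units on day 4, by -0.48 ± 0.292 on day 6 and by 0.29 ± 0.533 on day 8, and none passed the test (edgeR, adjusted p = 0.944, 0.351 and 0.761). No member was called on day 4, when 0.68% of 25308 genes were, or on day 6, when 1.32% of 25057 genes were. DESeq2 also called 0 members on both days, and 2 had an unadjusted edgeR p under 0.05 each time. That unadjusted limit was passed by 4654 of the 25308 genes on day 4 and by 6076 of the 25057 on day 6. Without control D the day 4 value turned to 0.27 (edgeR, adjusted p = 0.759) and the day 6 value was -0.14 (edgeR, adjusted p = 0.813). Without day 8 C the day 8 value turned to -0.62 log2 units (edgeR, adjusted p = 0.273). Without both mice rich in thalamus markers it was -0.27 (edgeR, adjusted p = 0.620). The difference between Rap 4 mice and controls was -0.49 ± 0.372 log2 units (edgeR, adjusted p = 0.539), and -0.15 without control D (edgeR, adjusted p = 0.887).

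On day 13 *Hcn4* was 0.87 ± 0.352 log2 units above controls, short of the threshold (edgeR, adjusted p = 0.0929). Its 95% interval was 0.084 to 1.66. DESeq2 on the same 8 mice gave 0.89 log2 units and did call it (DESeq2, adjusted p = 0.0386), and so did edgeR without control D, at 1.21 log2 units (edgeR, adjusted p = 0.0403). Between Rap 4 and day 13 *Hcn4* was lower, with a difference of -1.38 ± 0.358 log2 units (edgeR, adjusted p = 0.0166). That call was lost without Rap 4 mouse B, at -1.25 log2 units (edgeR, adjusted p = 0.0530), and with the thalamus markers as a covariate, at -1.22 log2 units (edgeR, adjusted p = 0.327).

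The thalamus marker sum was lowest in day 13 B, at 75.1 CPM, where *Hcn4* was at 7.46 CPM, and second highest in day 8 C, at 360 CPM, where *Hcn4* was at 8.27 CPM. These were the 2 highest *Hcn4* levels of the series. The 6 medial habenula markers summed to 157 CPM in day 8 C, the highest of all mice, and to 138 CPM in day 4 A, which had the highest *Hcn4* level of its group. On day 13 they ranged from 64.7 to 109 CPM against 57.0 to 76.3 CPM in controls, with 1 of the 5 tested called higher, *Gpr151*, a receptor gene of the habenula. Most of this sum came from *Nwd2*, at 99.7 CPM in day 13 A and 70.4 CPM in day 13 B. The receptor subunit gene *Chrna3* was at 1.09 and 1.24 CPM in the same mice, under the 2.07 to 3.82 CPM of the controls. *Chrnb4* was also under each control there, so in day 13 A and B the list did not move as one. In day 13 D, with *Hcn4* at 3.88 CPM, each of the 6 markers was above each control, *Chrna3* at 6.14 CPM. Rap 4 C had the highest *Hcn4* level of its group, 2.94 CPM. Its *Chrna3* (4.72 CPM) and *Nwd2* (77.7 CPM) were above each control, and its *Pou4f1* (1.54 CPM) was not. The part of the thalamus and habenula markers in the *Hcn4* values was not tested.

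**Figure D2:**
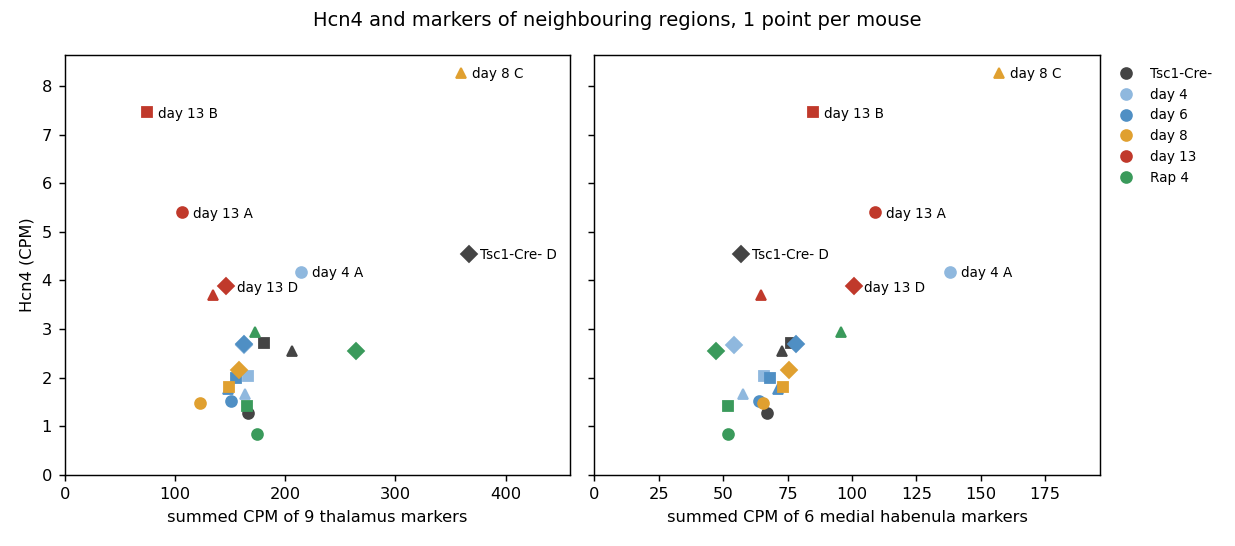
*Hcn4* level in CPM against the summed CPM of 9 thalamus markers (left) and of 6 medial habenula markers (right), 1 point per mouse, coloured by group, with symbols for mice A to D. Day 8 C, at 8.27 CPM of *Hcn4*, is far right in both panels, whereas day 13 A and B combine 5.40 and 7.46 CPM of *Hcn4* with the 2 lowest thalamus sums.

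*Hcn2*, the gene of a widely expressed and cyclic AMP-sensitive subunit, varied little. It was at 77.9, 79.1, 81.7 and 87.5 CPM in controls, at 77.9, 75.0, 77.5 and 78.3 CPM on day 4, and at 86.4, 91.2, 90.1 and 89.5 CPM on day 6. The day 6 mice were above all day 4 mice, and both groups overlapped the controls.

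*Hcn2* was at 89.7, 103, 78.5 and 86.3 CPM on day 8, at 73.9, 71.8, 75.8 and 85.7 CPM on day 13, and at 86.0, 78.2, 69.7 and 70.3 CPM in Rap 4 mice. All 3 groups overlapped the controls. The order of the means ran from Rap 4 (76.0 ± 7.69 CPM) through day 13 (76.8 ± 6.18), day 4 (77.2 ± 1.49), controls (81.6 ± 4.27) and day 6 (89.3 ± 2.07) to day 8 (89.5 ± 10.3), and neighbouring groups overlapped.

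Against controls *Hcn2* differed by -0.079 log2 units on day 4, 0.12 on day 6, 0.12 on day 8, -0.11 on day 13 and -0.10 with rapamycin, none of which passed the test (edgeR, adjusted p = 0.320, 0.0720, 0.342, 0.333 and 0.459). On day 13 the 95% interval was -0.28 to 0.068 log2 units, within the fold minimum of 0.5. From day 4 to day 6 *Hcn2* differed by 0.20 ± 0.0346 log2 units, with an adjusted p of 0.00636 by edgeR, which is a 1.15-fold step and short of the fold minimum. No member was called for that step by edgeR or DESeq2, and 0.604% of 25184 genes were called by edgeR. An unadjusted edgeR p under 0.05 was reached by 2 members and by 4667 of the 25184 genes.

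*Pex5l*, which codes for TRIP8b, was at 407, 408, 371 and 419.7 CPM in controls, at 335, 372, 328 and 371 CPM on day 4, and at 416, 396, 397 and 388 CPM on day 6. Day 8 mice were at 393, 463, 410.3 and 421 CPM. The day 4 mice overlapped the controls only through control C. Controls A and B lay within the day 6 range, and controls A, B and D within the day 8 range.

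On day 13 *Pex5l* was at 346, 307, 499 and 426 CPM, and in Rap 4 mice at 359, 371, 349 and 362 CPM. The Rap 4 mice reached only the lowest control, C. Day 13 held both the lowest and the highest *Pex5l* levels of the series, in mice B and C, and its coefficient of variation was 21.7% against 5.29% in controls and 2.45% in Rap 4 mice. The day 13 mice with the higher *Hcn3* levels, A and B, were those with the lower *Pex5l* levels. By mean the order was day 4 (352 ± 23.4 CPM), Rap 4 (360.2 ± 8.83), day 13 (394 ± 85.6), day 6 (399 ± 11.9), controls (401 ± 21.3) and day 8 (422 ± 29.7), and neighbours overlapped.

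The differences of *Pex5l* from controls were -0.19 ± 0.0542 log2 units on day 4, -0.018 ± 0.0456 on day 6, 0.058 ± 0.0643 on day 8, -0.043 ± 0.143 on day 13 and -0.16 ± 0.0497 with rapamycin. None was called (edgeR, adjusted p = 0.0723, 0.866, 0.594, 0.846 and 0.108). The 95% interval on day 13 was -0.36 to 0.28 log2 units. From day 4 to day 6 *Pex5l* differed by 0.17 ± 0.0448 log2 units (edgeR, adjusted p = 0.0463), under the fold minimum.

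From day 6 to day 8 no member was called by edgeR or DESeq2, and 0.229% of 24871 genes were called by edgeR. An unadjusted edgeR p under 0.05 was reached by 1 member and by 4264 of the 24871 genes. *Hcn3* differed by 0.45 ± 0.137 log2 units (edgeR, adjusted p = 0.151). Without day 8 D, the lowest day 8 mouse, it was 0.58 (edgeR, adjusted p = 0.0142) and called. Over all 6 groups together, an F test of edgeR found a difference for *Hcn3* (adjusted p = 1.23e-06) and *Hcn2* (adjusted p = 0.0177) but not for *Hcn4* (adjusted p = 0.0916) or *Pex5l* (adjusted p = 0.155), that is for 2 of 4 members, where 41.9% of 27110 genes passed.

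**Figure D3:**
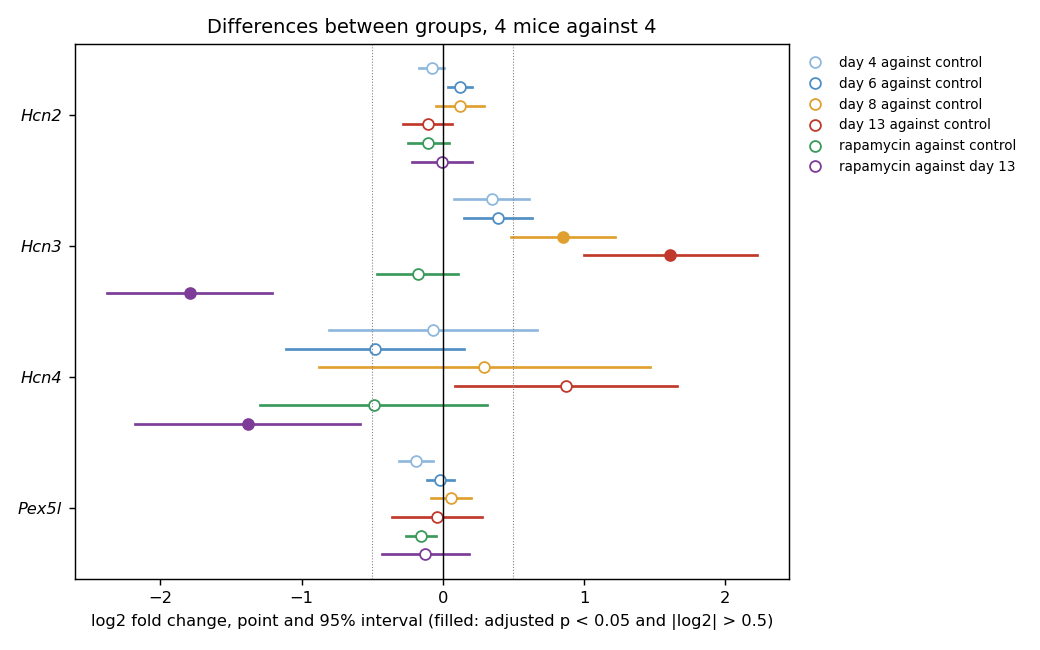
Log2 fold change of each member in 6 comparisons of 4 mice against 4, with 95% intervals as lines; filled points are called and dotted lines mark the fold minimum of 0.5. *Hcn3* lies at 0.85 on day 8, 1.61 on day 13 and -1.79 between Rap 4 and day 13, while the *Hcn2* points stay between -0.11 and 0.12.

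Genes whose products act with or on HCN channels were described in 5 lists. Of 5 genes tied to TRIP8b (its paralog *Pex5*, the small GTPase gene *Rab8b* and 3 subunits of the clathrin adaptor AP2), 2 were called higher and 1 lower on day 13, when 16.5% of all genes tested were called. *Ap2m1* went from 164 ± 5.21 CPM in controls to 239 ± 25.1 CPM (log2 0.52, edgeR, adjusted p = 0.00147). *Ap2a1*, coding for another AP2 subunit, went from 155 ± 3.57 to 227 ± 10.6 CPM (log2 0.53, edgeR, adjusted p = 0.000646). *Rab8b*, for whose product TRIP8b was named as an interactor, went from 74.0 ± 2.65 to 49.2 ± 13.2 CPM (log2 -0.61, edgeR, adjusted p = 0.0258), and its call held in 2 of the 8 fits that left out a mouse.

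Of 12 genes of other HCN-binding proteins, 3 were called higher and 2 lower on day 13, beside the same 16.5% over all genes. *Tamalin*, a scaffold gene, went from 28.1 ± 1.47 CPM in controls to 41.6 ± 8.63 CPM on day 8 (log2 0.55, edgeR, adjusted p = 0.0146) and 80.6 ± 25.6 CPM on day 13 (log2 1.49, edgeR, adjusted p = 0.00172), and was at 27.2 ± 4.00 CPM in Rap 4 mice. Its day 8 call was lost without day 8 A or day 8 C, at log2 0.50 and 0.44. *Flna*, the gene of the actin crosslinker filamin A, went from 176 ± 6.39 to 350.5 ± 68.8 CPM on day 13 (log2 0.97, edgeR, adjusted p = 0.00106), and *Vapa*, coding for a membrane-contact protein of the endoplasmic reticulum, from 93.4 ± 2.47 to 140.0 ± 21.6 CPM (log2 0.56, edgeR, adjusted p = 0.00309). *Irag1* and *Irag2*, related genes whose products tune the cyclic AMP response of HCN4, were the lower ones. *Irag1* went from 4.4 ± 0.917 to 2.10 ± 0.521 CPM (log2 -1.10, edgeR, adjusted p = 0.00888) and *Irag2* from 3.02 ± 0.355 to 1.98 ± 0.543 CPM (log2 -0.64, edgeR, adjusted p = 0.04998), a call that held in 1 of 8 fits without a mouse. *Irag2* was already called lower on day 4, at 2.05 ± 0.0779 CPM (log2 -0.55, edgeR, adjusted p = 0.0256, held in 3 of 8 such fits), and on day 6, at 1.99 ± 0.156 CPM (log2 -0.61, edgeR, adjusted p = 0.00812, held in 8 of 8).

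None of 12 genes of cyclic AMP synthesis and breakdown and none of 9 kinase, phosphatase and repressor genes was called on day 8, day 13 or with rapamycin against controls. Their median log2 fold changes on day 13 were 0.078 and -0.0090, beside -0.040 over all genes. The 6 cyclic nucleotide-gated channel genes, the closest relatives of HCN channels, left 3 after the filter on low counts. Of these *Cnga4*, known from olfactory neurons, fell from 1.14 ± 0.271 CPM in controls to 0.573 ± 0.213 on day 8 (log2 -1.0, edgeR, adjusted p = 0.0431) and 0.447 ± 0.112 on day 13 (log2 -1.39, edgeR, adjusted p = 0.00593). It had 13 to 78 counts per mouse, and its day 8 call held in 3 of 8 fits without a mouse.

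No gene of these 5 lists was called between Rap 4 mice and controls, but not all were back at the control level. *Flna* was at 118 to 142 CPM in Rap 4 mice, under each control (166 to 179 CPM). *Pex5*, at 37.48 to 42.75 CPM, was just under each control (42.84 to 44.48 CPM). *Nedd4l*, at 340 to 409.5 CPM, was above each control (302 to 308 CPM). Against day 13, *Pex5*, *Ap2m1*, *Ap2a1*, *Ap2b1*, *Flna*, *Vapa*, *Tamalin* and the phosphodiesterase gene *Pde4b* were called lower in Rap 4 mice, and *Rab8b* and *Nedd4l*, the gene of a ubiquitin ligase, higher. By list, 4 of 5 genes tied to TRIP8b were lower and 1 higher, and 3 of 12 other HCN-binding genes lower and 1 higher. Of 12 cyclic AMP genes 1 was lower, and the remaining 2 lists had 0 called. Over all 24274 genes tested, 21.1% were called in this comparison. *Flna* differed by -1.45 and *Tamalin* by -1.55 log2 units there (edgeR, adjusted p = 0.000217 and 0.00136). Over the 8 fits that left out a mouse, the call held in 3 for *Pde4b*, 3 for *Rab8b*, 5 for *Ap2b1* and 7 for *Vapa*. The *Pde4b* difference went from -0.69 to -0.37 log2 units without day 13 A. The comparisons of day 13 with controls and with Rap 4 mice share the day 13 mice. With the thalamus markers as a covariate, *Ap2a1* alone of the 9 genes called on day 13 in these lists was still called. The other differences kept their direction without passing the test, at 1.33 for *Tamalin*, -1.42 for *Cnga4*, 0.78 for *Flna*, 0.41 for *Ap2m1* and 0.47 for *Vapa*. Those of *Rab8b*, *Irag1* and *Irag2* were -0.45, -0.52 and -0.49.

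**Figure D4:**
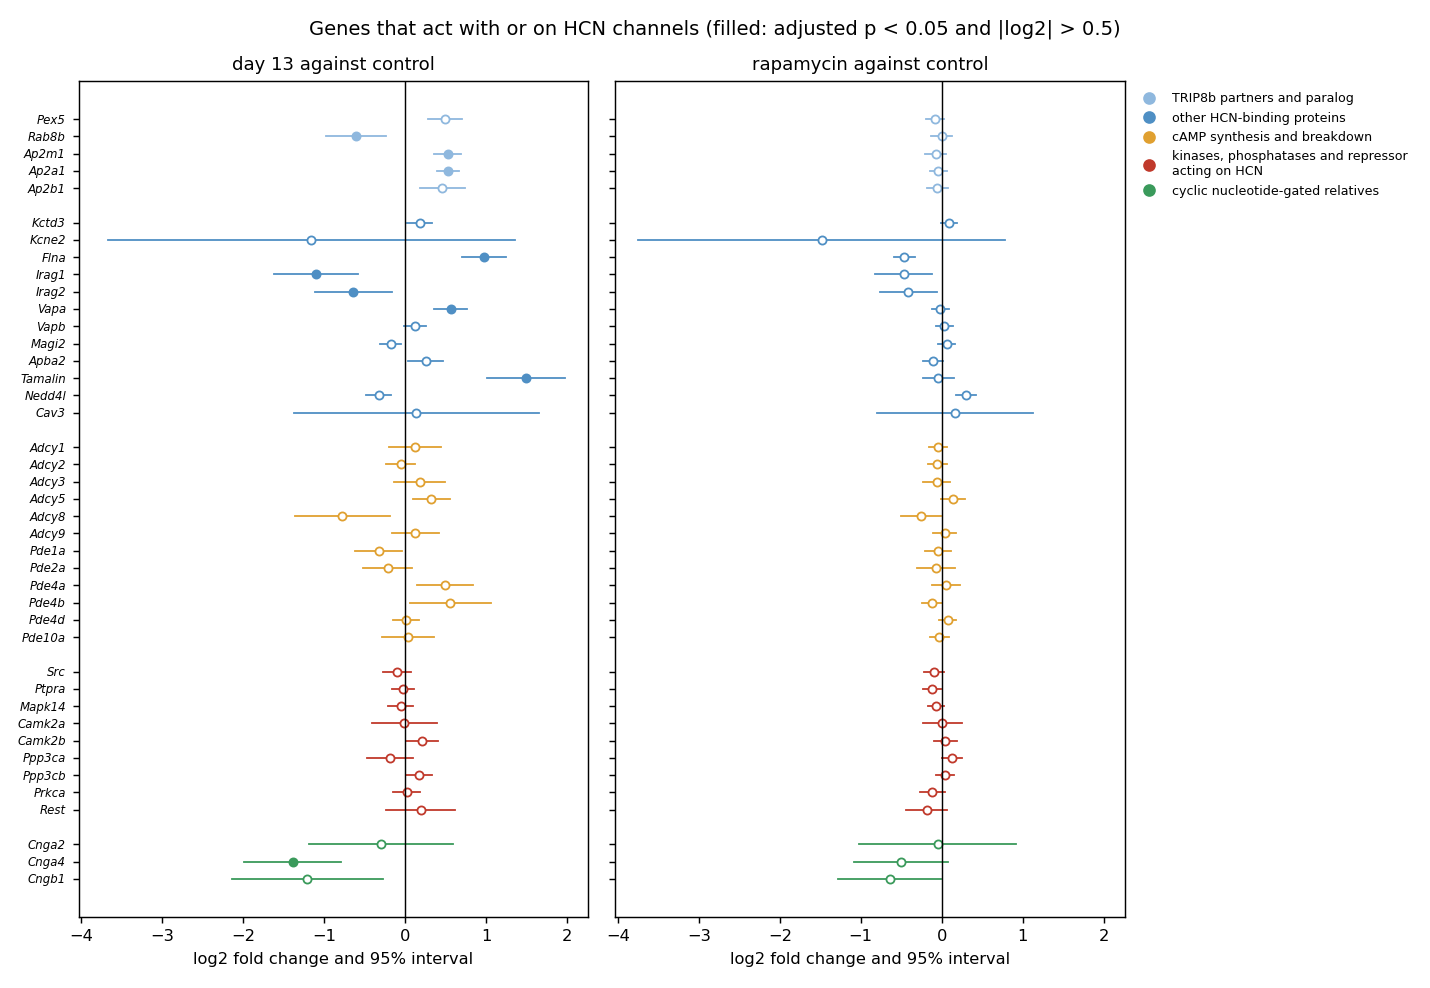
Log2 fold changes and 95% intervals of the tested genes of the 5 related lists, for day 13 (left) and Rap 4 (right) against controls on the same axis; filled points are called, colours mark the lists. On day 13 *Tamalin* lies at 1.49 and *Cnga4* at -1.39, and on the right no point is filled.

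Over the 24 mice the pairs of members differed in how far they moved together. Pearson's r of log2 CPM was 0.58 between *Hcn3* and *Hcn4*, 0.53 between *Hcn2* and *Pex5l*, -0.37 between *Hcn2* and *Hcn4*, and between -0.11 and -0.0066 for the other pairs. These points share groups and libraries, so the values are descriptions. Among 18259 genes with a mean of at least 1 CPM, those most like *Hcn3* were *Slc7a4*, *Slc6a8*, *Wdfy1*, *Lman2* and *Kcnip3*, with r from 0.965 to 0.969. *Slc6a8*, the creatine transporter gene, went from 73.7 ± 1.54 CPM in controls to 126 ± 19.5 CPM on day 8 and 219.8 ± 78.7 CPM on day 13, and was at 74.8 ± 4.07 CPM in Rap 4 mice.

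Most like *Hcn2* were *Ahr*, *Tmem74*, *BC030500*, *Tm7sf2* and *Orai3* (r from 0.763 to 0.811). Most like *Hcn4* were *A2m*, *Cnksr3*, *Amotl1*, *Vezf1* and *Prkch* (r from 0.810 to 0.848). For *Pex5l* they were *Tppp*, *Ighm*, *Sept6*, *Chn1* and *Adam22* (r from 0.796 to 0.859). *A2m*, the gene of a secreted protease inhibitor, had like *Hcn4* its widest spread on day 8, from 5.15 to 36.3 CPM. The genes closest to *Hcn2*, *Hcn4* and *Pex5l* were thus less alike to them than those closest to *Hcn3*, whose differences between groups were the largest of the 4.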

How the data were processed

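RNA of 24 hippocampi was measured. The authors made stranded libraries from ribosome-depleted total RNA, and they deposited whole-number read counts per gene without normalization. Per the submitters' processing notes, the tools were cutadapt 1.16.5, STAR 2.7.2b and featureCounts 1.6.4, on genome build GRCm38. Gene names and exon lengths came from GENCODE M21 on that build. Per kilobase levels divide CPM by the union of a gene's exons. The members and gene lists were chosen with earlier results of these data known.

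Each pair of groups (8 mice) was compared with edgeR 4.0.16 under R 4.3.3 (filterByExpr, TMM, quasi-likelihood test). All 4 members passed the filter in each comparison. SE is the absolute log2 fold change over the square root of F, and 95% intervals use the fit's degrees of freedom. DESeq2 1.42.0, a fit of all 24 mice, DESeq2 size factors, no filter, no fold minimum, the replicate letter or animal series as a block, the thalamus markers as a covariate and leaving out each mouse were alternatives. Leaving out the pair of mice rich in thalamus markers was chosen after seeing the data. The edgeR and DESeq2 fits were tested on simulated counts.

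The named genes were the 4 members, the genes of the related lists called on day 8, on day 13 or with rapamycin against controls, at most 5 per list by size on day 13, and the 5 genes most like each member by Pearson's r. *Pex5*, *Ap2b1*, *Pde4b* and *Nedd4l*, called between Rap 4 and day 13, and the single markers were named after their values were seen. Sensitivity to a small difference was lowest for *Hcn4*, with as few as 24 counts in a mouse. Certain genes are not reported here.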

Additional observations from a re-analysis of the deposited data

Results flagged for a closer look

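In 24 groups of 4 values (4 genes in 6 groups), 1 mouse lay farther from the others than Dixon's 95% limit allows. *Hcn4* was at 8.27 CPM in day 8 mouse C and at most 2.16 CPM in the other day 8 mice, a gap that made up 0.899 of the group's range. Chance alone flags about 5% of such groups. The same mouse had the highest medial habenula sum (157 CPM) and the second highest thalamus sum (360 CPM) of the 24 mice. The part of these markers in the *Hcn4* value was not tested.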

How the results depend on the processing

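The counts of members called were recomputed under each alternative. On day 6 against controls the count went from 0 to 1 with no fold minimum and to 1 without control C (*Hcn3* both times; 0 to 1 over the mice left out). On day 13 it went from 1 to 2 with DESeq2 and without control D, the one mouse rich in thalamus markers in this comparison (*Hcn4* added both times; 1 to 2 over the mice left out), and to 0 with the thalamus covariate. For Rap 4 against day 13 it went from 2 to 0 with that covariate and to 1 without Rap 4 mouse B (1 to 2). From day 4 to day 6 it went from 0 to 2 with no fold minimum (*Hcn2* and *Pex5l*), from day 6 to day 8 from 0 to 1 without day 8 D (0 to 1), and from day 8 to day 13 from 0 to 1 in the fit of all 24 mice. The cause was not tested. The covariate fit has fewer residual degrees of freedom and, on day 13, a marker level that does not overlap between the groups.

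Of 572 recomputed member fold changes, 529 kept their direction and side of the threshold, 4 lost and 9 gained a call, and 30 changed sign, 0 of them at an adjusted p under 0.05. Not all of these are separate checks. The values with no fold minimum are those of the main fit and could not change sign. Where a comparison held only 1 mouse rich in thalamus markers, leaving out the pair repeats the fit without that mouse. With the thalamus covariate, *Hcn4* turned to 0.34 on day 4, 0.24 on day 6 and 0.14 from day 4 to day 6, *Pex5l* to 0.0018 on day 6 and 0.16 on day 13, and *Hcn2* to 0.044 on day 13 and 0.026 from day 6 to day 8. Without the mice rich in thalamus markers, *Hcn4* turned to 0.27 on day 4, -0.27 on day 8 and -0.15 from day 6 to day 8, *Pex5l* to 0.0046 on day 6 and *Hcn2* to 0.050 from day 6 to day 8. In the fit of all 24 mice *Hcn2* turned to 0.0024 from day 6 to day 8. Leaving out single mice, *Hcn4* ranged from -0.38 to 0.27 on day 4, from -0.62 to 0.63 on day 8 and from -0.15 to 1.01 from day 6 to day 8. In the same fits *Pex5l* ranged from -0.054 to 0.0046 on day 6, -0.15 to 0.071 on day 13, -0.24 to 0.0026 for Rap 4 against day 13 and -0.24 to 0.0062 from day 8 to day 13. *Hcn2* ranged from -0.074 to 0.053 for Rap 4 against day 13 and from -0.090 to 0.050 from day 6 to day 8, and *Hcn3* from -0.0074 to 0.10 from day 4 to day 6.

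With the replicate letter as a replicate block, the count of members called stayed at 1 on day 8, 1 on day 13 and 2 for Rap 4 against day 13, and *Hcn3* was at 1.53 log2 units on day 13 (edgeR, adjusted p = 0.0151). The letters do not pair the mice: deviations of mice with the same letter correlated between -0.486 and 0.274, and in no comparison were all 4 correlations over 0.1. Of the 360 recomputed values for the 23 related-gene calls, 69 lost the call and 0 changed sign. They hold the same repeated fits as the member values.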
